A study of Mus musculus with 16 samples.

Results

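Lymphocytes hold their place in the spleen with integrins, and 9 of the 38355 genes of the deposited expression values are followed here: the integrin chain genes Itgal, Itgb2, Itga4, Itgb1, Itgb7 and Itgax, the ligand genes Icam1 and Icam2, and Cd44, which encodes a receptor for hyaluronan. The members were the genes with these symbols, and each symbol matched 1 gene. All 9 exceeded a mean of 1 RPKM (reads per kilobase of exon, scaled to the mapped reads of the library) in at least 1 group and were among the 12507 genes tested on that ground. RNA-Seq had been done on splenic B-cells of WT mice (C57BL/6) and of Mir146a-/- mice (KO) on the same background, the latter lacking miR-146a in every tissue. The WT mice were purchased and the KO mice came from a separately made line, so that the origin of the mice and the genotype cannot be told apart. Spleens of 3 to 5 mice were pooled before sorting, the age is not given in the sources used here, and no other allele or treatment is listed. The 8 groups were transitional T1 (CD23- AA4+ IgMhigh CD21-/low), transitional T2 (CD23+ AA4+ IgMhigh CD21low), marginal zone (MZ; CD23- AA4- IgMhigh CD21high) and follicular (FO; CD23+ AA4- IgMlow CD21int) cells of each genotype, with 2 libraries per group.

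An integrin is a pair of an α and a β chain, and it binds a ligand on another cell or in the matrix once it has been switched to its active form from inside the cell. LFA-1, made of the chains encoded by Itgal and Itgb2, binds the immunoglobulin-like ligands ICAM-1 and ICAM-2. The α4 chain, encoded by Itga4, pairs with either the β1 chain to bind VCAM-1 or the β7 chain to bind MAdCAM-1 of mucosal vessels. LFA-1 and α4β1 are known for keeping MZ B-cells in the marginal zone, while FO B-cells recirculate through blood and lymph.

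The total of reads behind the values was 9003343 to 26386684 per library. Of the sort markers, Fcer2a (CD23) had group means of 39.0 and 43.4 RPKM in T1 and of 13.9 and 15.4 RPKM in MZ, against 637 to 735 RPKM in T2 and FO. The replicate 2 library of T1 stood apart in both genotypes, with 22.9% (WT) and 25.7% (KO) of the summed RPKM in its 10 highest genes against at most 15.5% in the other libraries, so T1 differences that passed are given with and without this pair. The summed RPKM of 6 plasma cell genes reached 3401 and 4499 in these 2 libraries. It was 809 (WT) and 1424 (KO) in the replicate 1 libraries of T1 and 227 to 651 in the other subsets. T1 thus stayed highest in this sum without the replicate 2 pair. Most of the T1 sum was Igj, with group means of 1614 (WT) and 2512 (KO) RPKM in T1. Sdc1, Prdm1 and Xbp1 also had their highest group means in T1 in both genotypes, and Irf4 in WT only. Mzb1 was lower in T1, at 239 (WT) and 242 (KO) RPKM, than in MZ, at 418 and 427 RPKM. Mir146, the deleted gene, had 1 read in each of the 2 WT FO libraries and 0 in the other 14, so that the genotypes could not be checked in most groups. In bulk samples, fewer cells of a type and less RNA per cell cannot be told apart.

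**Figure D1:**
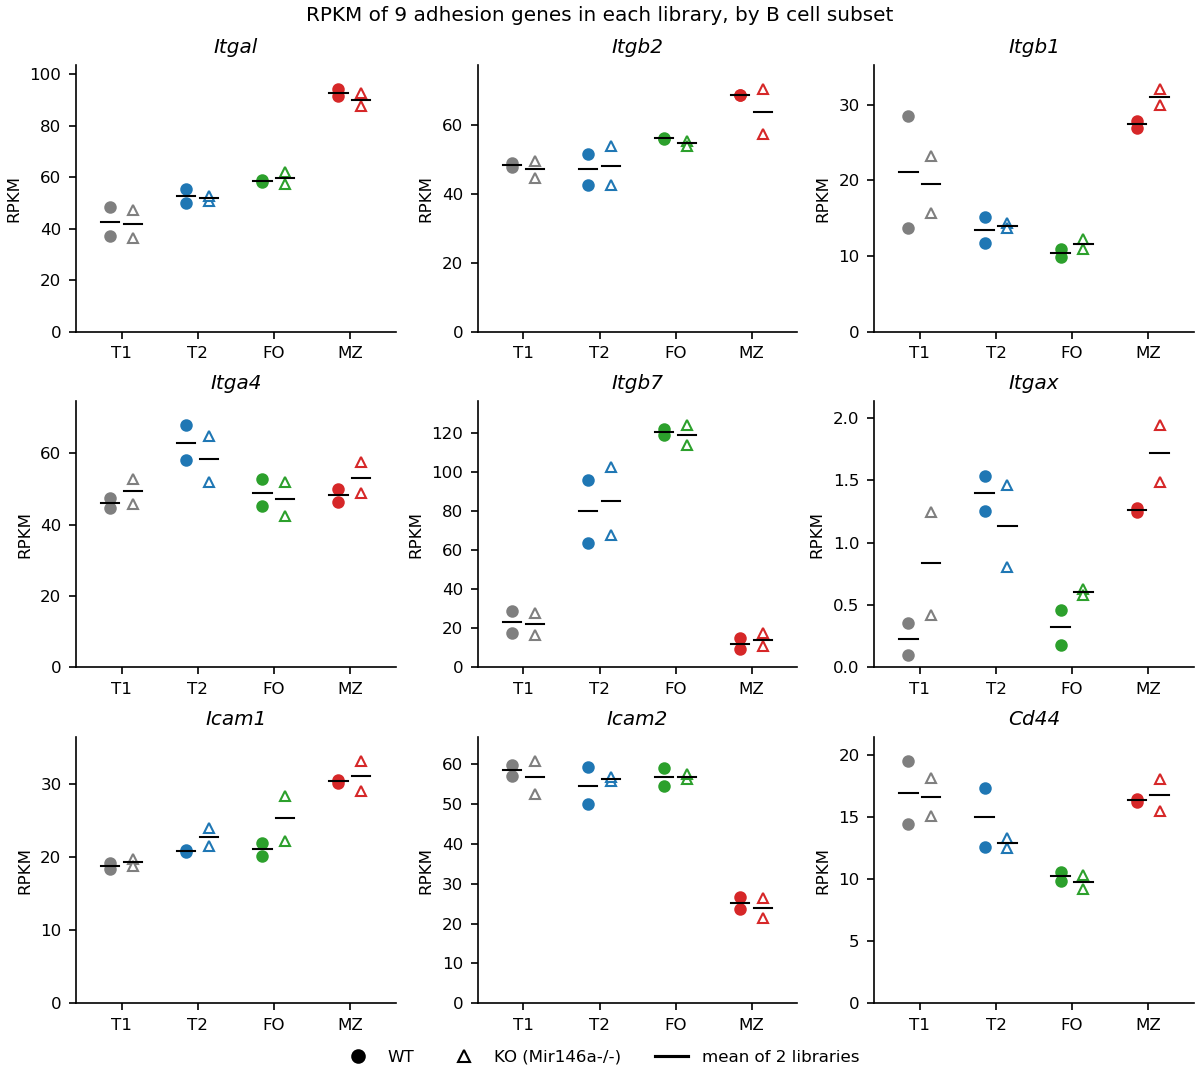
RPKM of the 9 genes in each of the 16 libraries (points; WT filled circles, KO open triangles) in T1, T2, FO and MZ, with the mean of the 2 libraries of a group as a bar and each vertical axis starting at 0. Itgb7 spans 9.31 to 124 RPKM with its lowest values in MZ, and Icam2 is at 21.4 to 26.7 RPKM in MZ against 50.1 to 60.7 RPKM elsewhere.

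The β chain genes that pair with α4 moved in opposite directions between the subsets, and Itgb7 moved the most of the 9 genes. Itgb7 (ENSMUSG00000001281, GRCm38 chromosome 15 from 102215995 to 102231944, minus strand) rose from T1 to T2 and was lowest in MZ. Itgb1 was highest in MZ, and Itga4, the partner of both, differed little between the subsets.

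Itgb7 in T1 was at 17.8 and 29.0 RPKM in WT and at 16.7 and 28.0 RPKM in KO. In T2 it was at 63.6 and 96.0 RPKM in WT and at 67.6 and 103 RPKM in KO. In FO it was at 122 and 119 RPKM in WT and at 124 and 113 RPKM in KO. All T2 libraries lay above all T1 libraries and all FO libraries above all T2 libraries. In MZ it was at 9.31 and 14.9 RPKM in WT and at 10.8 and 17.7 RPKM in KO. The MZ range touched the T1 range, with 1 MZ library above the lowest T1 library, and lay far under T2 and FO.

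Differences were fitted on log2(RPKM + 0.5) with limma over all 12507 genes, as the mean of both genotypes unless stated, with p-values adjusted by Benjamini-Hochberg over these genes. A gene passed at an adjusted p under 0.05 and was called where its log2 difference was also beyond 1. Itgb7 rose from T1 to T2 by 1.84 ± 0.25 (log2 difference ± SE, 4 libraries per subset, adjusted p = 0.000507), a 3.58-fold rise. From T2 to MZ it fell by 2.61 ± 0.25 (adjusted p = 1.52e-05), or 6.11-fold. From FO to MZ it fell by 3.17 ± 0.25 (adjusted p = 3.87e-06), or 9.02-fold. All 3 differences passed under each of the alternatives of processing and of left-out libraries. The difference from T2 to FO was 0.56 ± 0.25 (adjusted p = 0.157) and did not pass. Without the replicate 2 libraries of T1, the rise from T1 to T2 was 2.195 on the log2 scale (adjusted p = 0.000698). The fall from T1 to MZ, -0.77 ± 0.25 (adjusted p = 0.0240), was -0.42 (adjusted p = 0.231) without them. It was also lost when the replicate 2 library of T1 of either genotype or the replicate 1 library of MZ of either genotype was left out alone (highest adjusted p = 0.0940).

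Itgb1 (ENSMUSG00000025809, GRCm38 chromosome 8 from 128685654 to 128733200, plus strand) in MZ was at 27.8 and 27.0 RPKM in WT and at 32.0 and 30.0 RPKM in KO. In T2 it was at 15.1 and 11.7 RPKM in WT and at 14.3 and 13.7 RPKM in KO. In FO it was at 9.81 and 10.9 RPKM in WT and at 10.9 and 12.3 RPKM in KO. MZ did not overlap with T2 or FO, whereas T2 and FO overlapped. Itgb1 rose from T2 to MZ by 1.07 ± 0.20 (adjusted p = 0.00135), a 2.09-fold rise, and from FO to MZ by 1.38 ± 0.20 (adjusted p = 0.000279), a 2.59-fold rise. Without the replicate 2 library of WT T2 the log2 rise from T2 to MZ was 0.98, which passed and lay under the fold limit. The summed markers of other B-lineage cells were also higher in MZ than in T2 and FO. The summed RPKM of the 6 plasma cell genes was 532 to 651 in MZ against 227 to 342 in T2 and 227 to 285 in FO. Most of it was Mzb1, which MZ B-cells are known to express, and the other 5 genes summed to 126 to 223 RPKM in MZ, 114 to 222 in T2 and 91.5 to 163 in FO. Of these 5, Prdm1 was at 5.95 (WT) and 4.39 (KO) RPKM in MZ against 0.813 and 0.613 RPKM in T2. Irf4 and Xbp1 were also higher in MZ than in T2 in both genotypes, and Sdc1 and Igj were lower. Of 8 genes of B1 and age-associated B-cells, none of which was at 0 throughout a group, the sum was 217 to 223 RPKM in MZ and 16.3 to 62.6 in the other subsets. Without Fcrl5, another gene known from MZ B-cells, it was 17.4 to 19.4 RPKM in MZ, 13.0 to 23.1 in T2, 10.2 to 15.6 in FO and 14.2 to 39.3 in T1. Of the genes left, Cd80 was at 4.30 (WT) and 4.59 (KO) RPKM in MZ against 0.454 and 0.597 RPKM in T2. Cd5 was also higher in MZ than in T2 in both genotypes, Tbx21 was lower, and the others differed in direction between the genotypes. Mzb1 and Fcrl5 were set aside after their values were seen, and the part of these cells in the MZ values of the members was not tested.

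In T1, Itgb1 was at 13.7 and 28.5 RPKM in WT and at 15.7 and 23.3 RPKM in KO, so that the replicates of T1 spanned the range between FO and MZ. The higher value of each pair came from the replicate 2 library with the high plasma cell sum, whose part in this was not tested. From T1 to MZ the log2 difference was 0.57 ± 0.20 (adjusted p = 0.0302), and 0.97 (adjusted p = 9.23e-05) without these libraries. That difference did not pass when the replicate 1 library of T1 of either genotype or any 1 of the 4 MZ libraries was left out (adjusted p up to 0.109). From T1 to FO Itgb1 fell by 0.81 ± 0.20 (adjusted p = 0.00731), and the difference was -0.41 (adjusted p = 0.0149) without them.

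Itga4 (ENSMUSG00000027009, GRCm38 chromosome 2 from 79255426 to 79333123, plus strand), the α4 chain gene, lay between 42.5 and 67.8 RPKM in all 16 libraries. Its T2 values were 67.8 and 58.0 RPKM in WT and 64.7 and 51.9 RPKM in KO, and the ranges of all 4 subsets overlapped. From T2 to MZ its log2 difference was -0.25 ± 0.11 (adjusted p = 0.0748), with a 95% interval of -0.49 to -0.02. From FO to MZ it was 0.07, with an interval of -0.16 to 0.31. It passed from T1 to T2, with a rise of 0.34 ± 0.11 (adjusted p = 0.0373), and this pass was lost (adjusted p up to 0.122) when either WT T1 library, KO T1 replicate 2, the replicate 1 library of T2 of either genotype or either WT MZ library was left out. Without both replicate 2 libraries of T1 the rise was 0.27 (adjusted p = 0.184).

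**Figure D2:**
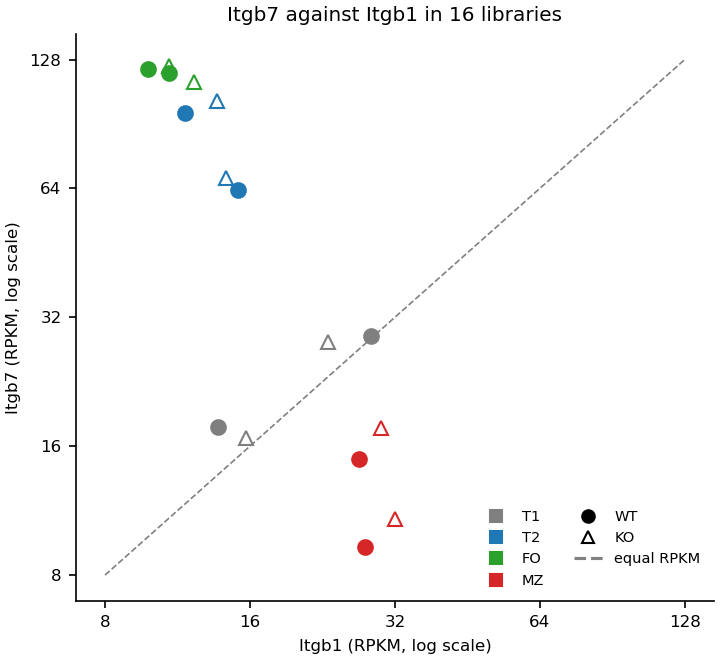
RPKM of Itgb7 (vertical) against Itgb1 (horizontal), both on log scales, for the 16 libraries coloured by subset, with WT as filled circles, KO as open triangles and equal RPKM as a dashed line. The 4 MZ libraries lie under the line, the 4 T1 libraries on or just above it, and the T2 and FO libraries above it, with Itgb7 at 4.20 to 12.4 times Itgb1.

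Since RPKM is per length of exon, the levels of the partner chains could be set against each other within a library. The ratio of Itgb7 to Itgb1 in RPKM was 1.01 to 1.30 in T1, 4.20 to 8.18 in T2, 9.24 to 12.4 in FO and 0.335 to 0.589 in MZ, so that Itgb1 had the higher RPKM of the 2 in MZ alone, with T1 near equality. Its log2 difference was -3.75 from T2 to MZ and -4.64 from FO to MZ. The ratio of Itga4 to Itgb1 was 3.80 to 4.94 in T2, 3.91 to 4.86 in FO and 1.62 to 1.85 in MZ, with log2 differences of -1.35 and -1.34 to MZ. In T1 it was 1.56 to 3.46. The ratio of Itgal to Itgb2 was 0.975 to 1.19 in T2, 1.04 to 1.12 in FO and 1.31 to 1.52 in MZ, with log2 differences of 0.33 and 0.38. In each of these 6 comparisons the 4 MZ libraries did not overlap with the 4 others. Two-sided exact permutation tests over the libraries gave p = 0.0286 each, the smallest p that 4 against 4 can give, and 0.0286 after adjustment over the 6.

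The promoters of the 2 β chain genes are shown because their transcripts moved in opposite directions between T2, FO and MZ. They are taken from RefSeq (GRCm38.p6), 250 bases before to 50 after the annotated start, and were at hand for 6 of the 9 members. Capitals mark CACCC on either strand, the letters that Krüppel-like factors are known to bind.
Itgb7, chr15:102231886-102232185, minus strand: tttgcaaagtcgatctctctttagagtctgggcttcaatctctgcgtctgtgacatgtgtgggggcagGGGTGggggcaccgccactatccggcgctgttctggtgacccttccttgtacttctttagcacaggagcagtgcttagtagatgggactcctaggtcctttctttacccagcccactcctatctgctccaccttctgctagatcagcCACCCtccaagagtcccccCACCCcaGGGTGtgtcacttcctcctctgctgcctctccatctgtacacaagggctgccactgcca
Itgb1, chr8:128685404-128685703, plus strand: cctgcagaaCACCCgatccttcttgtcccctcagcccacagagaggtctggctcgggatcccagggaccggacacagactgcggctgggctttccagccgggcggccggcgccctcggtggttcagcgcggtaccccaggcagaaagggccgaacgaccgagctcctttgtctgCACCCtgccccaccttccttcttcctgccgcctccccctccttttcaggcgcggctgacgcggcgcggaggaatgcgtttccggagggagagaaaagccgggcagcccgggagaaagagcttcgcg
The Itgb7 window held 4 matches to CACCC and no GGGCGG (a GC box), and the Itgb1 window 2 matches to CACCC and 1 to GGGCGG. Both strands were searched, and no match shared a base with a match of another kind. Of 27025 promoters of this length, 56.7% held CACCC and 35.9% held GGGCGG. Neither window held TGGGAA, the core bound by the Notch partner RBPJ, which 25.5% of promoters held, or TATAAA, which 14.2% held. A match describes the letters of the window and nothing more.

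Both chain genes of LFA-1 and the gene of 1 ligand were higher in MZ than in T2, while the gene of the other ligand was lower. Itgal, Itgb2 and Icam1 rose from T2 to MZ, each by under 1 on the log2 scale, and Icam2 fell by over 1.

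Itgal (ENSMUSG00000030830, GRCm38 chromosome 7 from 127296260 to 127335138, plus strand), the αL chain gene, was at 37.1 and 48.4 RPKM in WT T1 and at 36.5 and 47.2 RPKM in KO T1. It was at 49.9 and 55.6 RPKM in WT T2 and at 50.8 and 52.7 RPKM in KO T2. In FO it was at 58.8 and 58.1 RPKM in WT and at 62.0 and 57.2 RPKM in KO. The order of the subsets was T1, T2, FO and MZ with no overlap between neighbours. In MZ it was at 94.2 and 91.6 RPKM in WT and at 87.5 and 92.7 RPKM in KO. The neighbours T2 and FO differed by 0.17 ± 0.10 on the log2 scale (adjusted p = 0.245) and did not pass. Itgal rose from T1 to MZ by 1.12 ± 0.10 (adjusted p = 4.46e-06), from T2 to MZ by 0.80 ± 0.10 (adjusted p = 7.91e-05) and from FO to MZ by 0.63 ± 0.10 (adjusted p = 0.000494). Without the replicate 2 libraries of T1, the rise from T1 to MZ was 1.30 (adjusted p = 1.56e-06). Its rise from T1 to T2, 0.31 ± 0.10 (adjusted p = 0.0371), passed in 11 of 25 alternatives and was 0.50 (adjusted p = 0.00118) without the replicate 2 libraries of T1. The pass was lost without T1 replicate 1 of either genotype, T2 replicate 2 of either genotype, KO T2 replicate 1, or any 1 of 6 MZ and FO libraries (adjusted p up to 0.122), namely both WT MZ and all 4 FO libraries.

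Itgb2 (ENSMUSG00000000290, GRCm38 chromosome 10 from 77530252 to 77565708, plus strand), the β2 chain gene, was at 68.8 and 69.0 RPKM in WT MZ and at 57.6 and 70.5 RPKM in KO MZ. In T2 it was at 42.8 and 51.8 RPKM in WT and at 42.5 and 54.1 RPKM in KO. In FO it was at 56.5 and 56.0 RPKM in WT and at 55.6 and 54.0 RPKM in KO. T1, at 44.6 to 49.8 RPKM, and FO overlapped with T2, and MZ with none of the 3. It rose from T2 to MZ by 0.48 ± 0.09 (adjusted p = 0.00216) and from T1 to MZ by 0.47 ± 0.09 (adjusted p = 0.00164), the latter being 0.52 (adjusted p = 0.00676) without the replicate 2 libraries of T1. From FO to MZ the difference of 0.25 ± 0.09 (adjusted p = 0.0559) did not pass. It passed when any 1 of the 4 T2 libraries or KO MZ replicate 1 was left out (lowest adjusted p = 0.0314).

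Icam1 (ENSMUSG00000037405, GRCm38 chromosome 9 from 21015985 to 21028817, plus strand), a ligand of LFA-1 induced in inflammation, was at 30.6 and 30.1 RPKM in WT MZ and at 29.1 and 33.1 RPKM in KO MZ. In T2 it was at 20.6 and 21.0 RPKM in WT and at 21.5 and 23.9 RPKM in KO. In FO it was at 21.9 and 20.2 RPKM in WT and at 28.3 and 22.3 RPKM in KO. MZ lay above all other libraries, the nearest of which was KO FO replicate 1. Icam1 rose from T2 to MZ by 0.49 ± 0.08 (adjusted p = 0.000619), from FO to MZ by 0.41 ± 0.08 (adjusted p = 0.00223) and from T1 to MZ by 0.67 ± 0.08 (adjusted p = 4.06e-05), the last being 0.64 (adjusted p = 0.000902) without the replicate 2 libraries of T1. In T1 it was lowest, at 18.4 to 19.8 RPKM. From T1 to FO it rose by 0.26 ± 0.08 (adjusted p = 0.0214), which was lost (adjusted p up to 0.0869) without the replicate 2 library of T1 or the replicate 1 library of FO of either genotype. Without both replicate 2 libraries of T1 it was 0.23 (adjusted p = 0.109).

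Icam2 (ENSMUSG00000001029, GRCm38 chromosome 11 from 106377656 to 106388075, minus strand), a ligand of LFA-1 present on resting lymphocytes and endothelium, was at 23.8 and 26.7 RPKM in WT MZ and at 21.4 and 26.3 RPKM in KO MZ. In T2 it was at 50.1 and 59.2 RPKM in WT and at 55.9 and 56.8 RPKM in KO. In FO it was at 54.6 and 59.1 RPKM in WT and at 56.4 and 57.5 RPKM in KO. T1, at 52.6 to 60.7 RPKM, overlapped with T2 and FO, and MZ stood apart below all 3. Icam2 fell by 1.16 ± 0.09 from T2 to MZ (adjusted p = 2.09e-06), or 2.24-fold. From FO to MZ it fell 2.30-fold, a log2 difference with a 95% interval of -1.39 to -1.01 (adjusted p = 1.72e-06), and from T1 to MZ it fell 2.32-fold (adjusted p = 9.30e-07). Without the replicate 2 libraries of T1 the last log2 difference was -1.28 (adjusted p = 1.54e-05). Among T1, T2 and FO its log2 differences were -0.05 to 0.04, with 95% intervals that stayed within 0.25 of 0.

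Cd44 (ENSMUSG00000005087, GRCm38 chromosome 2 from 102811141 to 102901665, minus strand), the hyaluronan receptor gene, was lowest in FO. It was there at 9.89 and 10.6 RPKM in WT and at 9.25 and 10.4 RPKM in KO, under every library of the other subsets. In MZ it was at 16.2 and 16.5 RPKM in WT and at 18.1 and 15.5 RPKM in KO, in T2 at 12.5 to 17.3 RPKM and in T1 at 14.5 to 19.5 RPKM. These 3 subsets overlapped. Cd44 rose from FO to MZ by 0.70 ± 0.12 (adjusted p = 0.000981) and fell from T1 to FO by 0.71 ± 0.12 (adjusted p = 0.000861), the latter difference being -0.54 (adjusted p = 0.00900) without the replicate 2 libraries of T1. The fall from T2 to FO, -0.45 ± 0.12, had an adjusted p of 0.0444 and was lost when any 1 of the 4 FO libraries, the 4 MZ libraries, KO T2 libraries or WT T2 replicate 1 was left out (adjusted p up to 0.176). From T2 to MZ its difference was 0.25 ± 0.12 (adjusted p = 0.115).

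Itgax (ENSMUSG00000030789, GRCm38 chromosome 7 from 128129547 to 128150657, plus strand), which encodes the αX chain CD11c that pairs with the β2 chain and marks dendritic cells, was the least expressed of the 9, at 5 to 106 reads per library. In T1 it was at 0.0985 and 0.356 RPKM in WT and at 0.421 and 1.25 RPKM in KO. In T2 it was at 1.54 and 1.25 RPKM in WT and at 0.803 and 1.46 RPKM in KO, and in FO at 0.178 and 0.464 RPKM in WT and 0.631 and 0.579 RPKM in KO. Both T2 and MZ lay above all FO libraries, and T1 overlapped with FO, T2 and MZ, its highest library, KO replicate 2, lying just above the lowest MZ library. In MZ it was at 1.24 and 1.28 RPKM in WT and at 1.94 and 1.49 RPKM in KO. Itgax rose from FO to MZ by 1.06 ± 0.24 (adjusted p = 0.00492) and from T1 to MZ by 1.05 ± 0.24 (adjusted p = 0.00326), on a scale that understates the change of so low a gene. The rise from FO to MZ was 0.93 to 1.19 as each library was left out, and lay under the fold limit without KO MZ replicate 1 or WT FO replicate 1. The rise from T1 to MZ, 0.82 to 1.28, did so without T1 replicate 1 of either genotype or KO MZ replicate 1, and was 1.41 (adjusted p = 0.000684) without both replicate 2 libraries of T1. Itgax is known from age-associated B-cells too, whose genes are given with Itgb1.

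From T1 to T2 Itgax rose by 0.87 ± 0.24 (adjusted p = 0.0209) and from T2 to FO it fell by 0.88 ± 0.24 (adjusted p = 0.0444). The first was 1.23 (adjusted p = 0.00419) without the replicate 2 libraries of T1. It was lost (adjusted p up to 0.0792) without T1 replicate 1 of either genotype, WT T2 replicate 1 or KO T2 replicate 2. The second was lost (adjusted p up to 0.152) without any 1 of 11 libraries, all 8 of MZ and FO, both KO T2 and WT T2 replicate 1. From T2 to MZ the difference of Itgax was 0.18 ± 0.24 (limma, adjusted p = 0.570) and did not pass. Summed markers of myeloid and dendritic cells reached their highest values in T2. Of 18 such genes, none of which was at 0 throughout a group, the summed RPKM was 79.8 to 140 in T2, 10.8 to 41.3 in FO, 24.6 to 66.8 in MZ and 15.4 to 109 in T1, with the highest T1 value in KO replicate 2. Lyz2 had group means of 24.4 (WT) and 35.3 (KO) RPKM in T2 against 6.83 and 13.5 RPKM in MZ. Most other genes of the list, Csf1r and C1qb among them, were also lower in MZ than in T2 in both genotypes. Cd68 was higher, at 8.91 (WT) and 9.07 (KO) RPKM in MZ against 8.00 and 4.97 RPKM in T2. Zbtb46 was higher in MZ too, at group means under 1 RPKM, and Siglech and Itgam differed in direction between the genotypes. The part of myeloid and dendritic cells in the Itgax values was not tested.

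**Figure D3:**
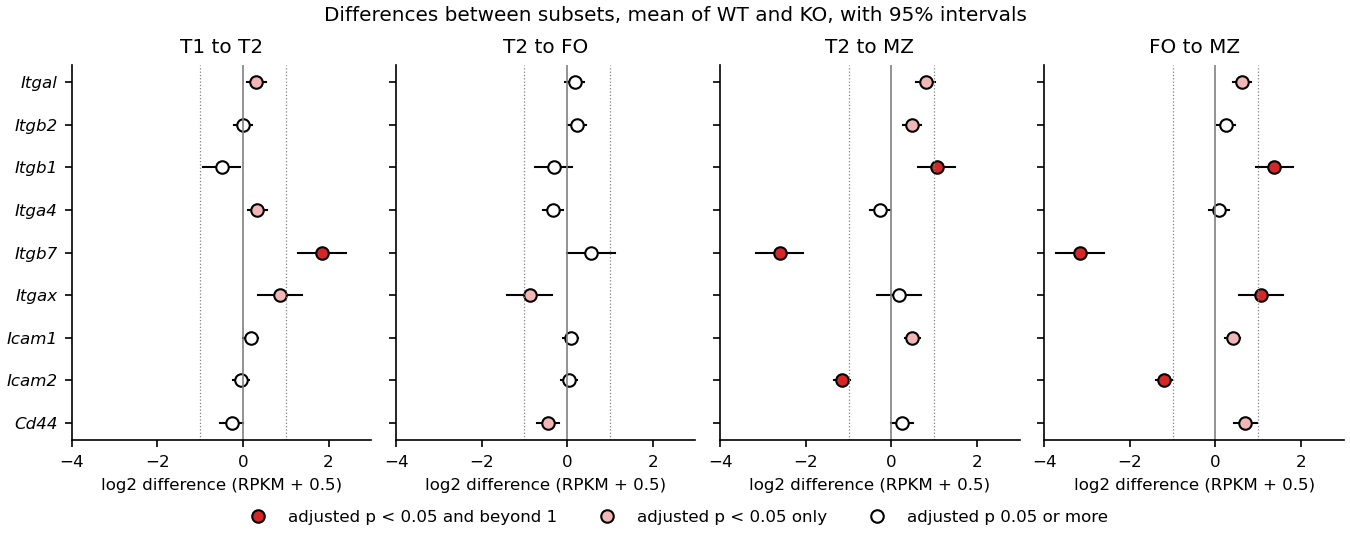
Log2 differences of the 9 genes (points, mean of WT and KO) with 95% intervals for T1 to T2, T2 to FO, T2 to MZ and FO to MZ, filled dark where the adjusted p was under 0.05 and the difference beyond 1 (dotted lines), light where only the adjusted p was, and open otherwise. Itgb7 and Icam2 lie left of -1 and Itgb1 right of 1 in both panels that end in MZ, and no dark point stands in T2 to FO.

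Counted over the members, the comparisons with MZ held most of the differences. From T2 to MZ 6 of 9 passed, where 41.9% of all tested genes did, and 3 were called (10.8% of all). From FO to MZ 7 of 9 passed (37.0% of all) and 4 were called (9.20% of all). From T1 to MZ 7 of 9 passed (53.1% of all) and 3 were called (17.4% of all). From T1 to T2 4 of 9 passed (25.6% of all) and 1 was called (5.43% of all), and from T1 to FO 5 of 9 passed (41.1% of all) and 1 was called (9.50% of all). From T2 to FO 2 of 9 passed (9.59% of all) and none was called, with limma, where 1.14% of all genes were called. An unadjusted p under 0.05 from T2 to FO was held by 5 of the 9, and by 3899 of the 12507 tested genes. Itgax was called there by limma-voom on the recovered reads, at -1.57 (adjusted p = 0.0255). The median log2 difference of the 9 was 0.25 from T2 to MZ and 0.41 from FO to MZ, against 0.02 and 0.04 over all tested genes.

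Within each genotype alone, with 2 libraries against 2, the calls were nearly the same. Itgb7, Itgb1 and Icam2 were called from T2 to MZ in WT, where 10.6% of all tested genes were, and in KO, where 9.44% were. They were also called from FO to MZ in WT (8.40% of all) and in KO (8.32% of all), with Itgax as a further call in WT. Itgax had a log2 difference of 1.12 in WT (adjusted p = 0.0348) and of 1.00 in KO (adjusted p = 0.0546) from FO to MZ, and limma-voom called it in KO at 1.47 (adjusted p = 0.0289). Itgb7 was called from T1 to T2 in WT (4.24% of all) and in KO (4.37% of all), and Itgax in WT. No member was called from T2 to FO, with limma, in WT, where 0.184% of all genes were, or in KO, where 0% were. An unadjusted p under 0.05 was held there by 3 of the 9 in WT (2613 of the 12507 tested genes) and by 1 of the 9 in KO (1498). With limma-voom on the recovered reads the counts of members called from T2 to FO in WT and in KO were also 0.

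The single-genotype calls were less even when a library was left out. Itgb1 from T2 to MZ did not pass in WT without WT T2 replicate 2 or either WT MZ library (adjusted p up to 0.106), and in KO without either KO T2 library or KO MZ replicate 1 (adjusted p up to 0.0771). Icam2 passed throughout and lay under the fold limit, at -0.98, in WT without WT T2 replicate 2. Itgb7 from T1 to T2 was lost in WT without WT T1 replicate 1 or WT T2 replicate 2 (adjusted p up to 0.0850), and in KO without KO T1 replicate 1 or KO T2 replicate 2 (adjusted p up to 0.0710). Itgax from T1 to T2 in WT was lost without WT T1 replicate 1 or either WT T2 library (adjusted p up to 0.128), and from FO to MZ in WT without either WT MZ library or any 1 of the 4 FO libraries (adjusted p up to 0.230). A lone library is then assumed to vary like the other groups.

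The question of whether loss of miR-146a moved these genes was addressed by KO against WT. No member passed in any subset or over the 4 subsets, and the estimates were small for all but Itgax. With limma, 0 of 9 passed in T1 (0.0400% of all tested genes did), T2 (0.0480%), MZ (0.0640%) and FO (0.0400%), and 0 over the mean of the subsets (0.232%). At an unadjusted p under 0.05 there was 1 member in T1 (439 of the 12507 tested genes) and none in T2 (421), MZ (206), FO (115) or the mean (998). With limma-voom on the recovered reads, 0 of the 9 passed as well.

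Itgax was the member with the largest estimate, 0.83 in T1 (95% interval 0.09 to 1.56, adjusted p = 1 with limma, and 1.94 with limma-voom), where KO replicate 2 held the highest value of both Itgax and the myeloid markers. Over the mean of the subsets it was 0.34 (interval -0.03 to 0.71, adjusted p = 0.643). For Itgal, Itgb2, Itga4, Icam1 and Icam2 every KO minus WT estimate in a subset was between -0.11 and 0.25, the highest being Icam1 in FO (interval -0.0011 to 0.50). Over the mean of the subsets, the interval of Itgal was -0.17 to 0.13, that of Itgb2 -0.19 to 0.11 and that of Icam2 -0.15 to 0.11. Itgb1 and Itgb7, whose replicates were farther apart, had wider intervals, -0.22 to 0.39 and -0.34 to 0.45. In MZ alone Itgb1 was at 0.18 (interval -0.44 to 0.79) and Itgb7 at 0.22 (interval -0.57 to 1.01). Differences within these bounds remained possible for them. Cd44 was at -0.06 over the mean of the subsets (interval -0.25 to 0.13), and its largest estimate in a subset was -0.19 in T2 (interval -0.57 to 0.18). With limma, no member passed the test of whether its change between subsets differed between KO and WT. Of all tested genes, 0% passed it from T1 to T2, 0.00800% from T2 to MZ, 0.00800% from T2 to FO and 0% from FO to MZ. At an unadjusted p under 0.05 there was 1 member from T1 to T2 (277 of the 12507 tested genes) and none from T2 to MZ (208), T2 to FO (123) or FO to MZ (47). This member was Itgax, at -1.07 on the log2 scale (95% interval -2.11 to -0.03). The 95% intervals of these tests reached up to 1.11 to either side of the estimate, so that differences of that size could be missed. These tests gave 0 members with limma-voom.

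**Figure D4:**
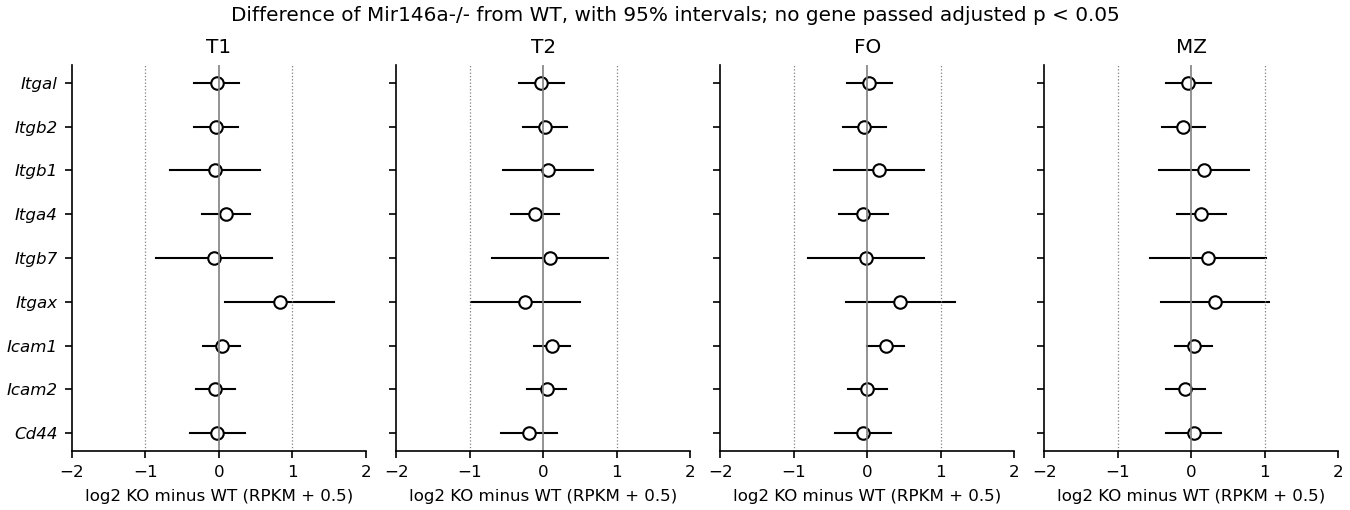
Log2 difference of KO minus WT for the 9 genes in T1, T2, FO and MZ (points) with 95% intervals, each from 2 libraries against 2. All intervals but that of Itgax in T1 include 0, and those of Itgb1, Itgb7 and Itgax are the widest.

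The letters that miR-146a pairs with were looked for in the members. The mature miRNA is shown with its seed, bases 2 to 8, in capitals, and comes from RefSeq (GRCm38.p6, chr11:43374435-43374456, minus strand).
mmu-miR-146a-5p: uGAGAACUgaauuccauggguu
Matches to the seed were searched in annotated 3′ UTRs (GENCODE M21, GRCm38) as AGTTCTCA (8mer), AGTTCTC (7mer-m8) or GTTCTCA (7mer-A1). Only Itga4 held a match, an 8mer at chr2:79330820-79330827 on the plus strand within a 3′ UTR of 6508 nt.
Itga4 site, match in capitals: aggaatctAGTTCTCAgggggtct
Of 10264 tested genes with an annotated 3′ UTR, 21.8% held a match of any kind and 5.03% an 8mer, and 1 of the 9 members did. The other members' longest 3′ UTRs were 151 nt (Icam2) to 2992 nt (Cd44). Itga4, which has this site, differed between KO and WT by 0.02 on the log2 scale over the mean of the subsets (interval -0.15 to 0.18), and by -0.11 to 0.13 in a subset.

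Other genes of adhesion are given from 3 lists of integrin and adhesion genes. From T2 to MZ most of those that passed fell, unlike the LFA-1 chains and Itgb1. Of 21 other integrin chain genes 7 were tested, and 2 rose and 3 fell, where 22.8% of all tested genes rose and 19.1% fell in this comparison. Itgb3, the β chain of the vitronectin receptor, fell by 2.101 ± 0.18 (adjusted p = 6.88e-06; 10.8 RPKM in T2 and 2.15 RPKM in MZ). Itga6, the α chain of laminin receptors, fell by 2.03 ± 0.15 (adjusted p = 2.42e-06; 3.87 RPKM in T2 and 0.571 RPKM in MZ). Itgad, an αD chain found on macrophages, fell by 0.83. The summed myeloid markers were also lower in MZ than in T2, and the part of myeloid cells in the fall of Itgad was not tested. Itga10, a collagen receptor chain, rose by 0.49 and Itgav, the αV chain, by 0.42.

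Of 25 other adhesion molecule genes 15 were tested, and 1 rose and 10 fell. Alcam, a ligand of CD6, fell by 2.02 ± 0.34 (adjusted p = 0.000700). Vcam1, the ligand of α4β1, fell by 1.46 ± 0.52 (adjusted p = 0.0411) at levels of 4.14 RPKM in T2 and 1.23 RPKM in MZ. The part of myeloid cells in the fall of Vcam1 was not tested. Sele, E-selectin, fell by 1.45 ± 0.18 (adjusted p = 8.77e-05) at 1.101 RPKM in T2 and 0.0861 RPKM in MZ. Ly9, a receptor of the SLAM family, was the single rise, 0.24 ± 0.07 (adjusted p = 0.0206).

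Of 29 genes of integrin activation and linkage to the cytoskeleton 22 were tested, and 2 rose and 10 fell. Cytip, which holds back the integrin regulator cytohesin-1, fell by 1.47 ± 0.16 (adjusted p = 4.19e-05; 68.2 RPKM in T2 and 24.6 RPKM in MZ). Flna, the actin crosslinker filamin A, which binds β chain tails, fell by 1.44 ± 0.08 (adjusted p = 4.10e-07; 134 RPKM in T2 and 49.3 RPKM in MZ). Rap1b, the small GTPase that switches integrins on, fell by 1.34 ± 0.15 (adjusted p = 5.50e-05). Rassf5, its effector RAPL, rose by 0.41 ± 0.08 (adjusted p = 0.00169) and Tln1, talin, which activates β chains, by 0.28 ± 0.07 (adjusted p = 0.0105). The medians of the 3 lists were -0.67, -0.86 and -0.10, against 0.02 over all tested genes. In KO against WT no gene of the 3 lists passed with limma in any subset.

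**Figure D5:**
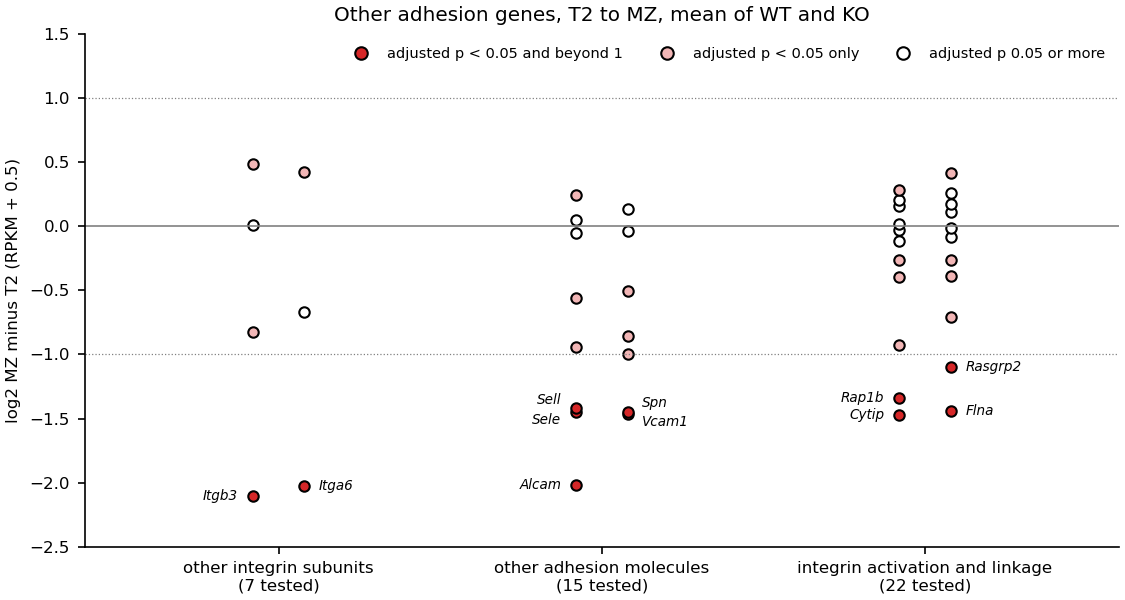
Log2 difference of MZ minus T2 (mean of WT and KO) for the tested genes of 3 lists, 7 other integrin subunits, 15 other adhesion molecules and 22 genes of integrin activation and linkage, shaded as in the plot of member differences, with names at genes called. All 11 named genes fell.

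The genes whose pattern was most like that of each called member were found by Pearson's r of log2(RPKM + 0.5) over the 16 libraries. These points share the 4 subsets, so that r mostly follows the subset means, and r is given as a description. Itgal was closest to Ahcyl2 (r = 0.990) and Pde8a (r = 0.987), and Icam2 to Cdc42se1 (r = 0.995) and Hvcn1 (r = 0.992). Itgb7 was closest to Mapk11 (r = 0.992) and Fcgrt (r = 0.986), and Itgb1 to AF067061 (r = 0.963) and Dnase1l3 (r = 0.961). Itgax, the low gene, had the weakest of these, Cox7b (r = 0.908) and the myeloid gene Aif1 (r = 0.889).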

How the data were processed

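RNA-Seq libraries (TruSeq, single-end, 100 bp) of 16 samples, 2 per group, were used. The authors aligned reads to mm10 with TopHat and deposited RPKM per gene, with replicates kept apart; the submitters' notes also list DESeq and edgeR, without versions. Within a gene, RPKM values were whole multiples of 1 read for all 23194 genes above 0 (tolerance 0.01 reads), which gave the reads and totals. The 12507 genes with a group mean over 1 RPKM entered 1 linear model of the 8 groups, on log2 of RPKM plus 0.5, with a variance trend (limma 3.58.1, R 4.3.3). Adjusted p-values (Benjamini-Hochberg) under 0.05 passed, and a log2 difference beyond 1 made a call. Ratios of 2 members were compared with exact permutation tests (scipy 1.17.1, Python 3.11.15). Nothing states that replicates were separate pools of mice, so p-values measure only the spread between libraries. The fit was tested on simulated data.

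All 9 members were named. From each of 3 lists of related genes, up to 3 of the largest rises and falls that passed from T2 to MZ were named, and for each member called between subsets the 2 genes of highest r. Members and lists were chosen with earlier results of these data known. Alternatives covered pseudocounts (0.1, 1), the filter, scaling, a replicate block, the libraries fitted, the fold limit and each library left out; limma-voom on recovered reads and leaving out T1 replicate 2 were added after seeing the data. Sequences came from RefSeq and GENCODE M21 (GRCm38). UTR matches were counted over all annotated coding transcripts of a gene. Gene coordinates are GRCm38.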

Additional observations from a re-analysis of the deposited data

Results flagged for a closer look

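Itgb2 in MZ was singled out because 1 library lay far from the other 3. KO MZ replicate 1 held 57.6 RPKM, whereas the others held 68.8 to 70.5 RPKM, a gap of 0.881 of the whole range on the log2(RPKM + 0.5) scale and past Dixon's 95% limit for 4 libraries. Of 36 sets of 4 libraries (9 genes in 4 subsets) this was the only one past the limit, and chance passes about 1 in 20. Without this library the difference of Itgb2 from FO to MZ was 0.33 on the log2 scale (limma, adjusted p = 0.0314), and with it 0.25 (adjusted p = 0.0559).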

How the results depend on the processing

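No alternative turned the direction of a member's difference that passed. The differences of Itgb7, Itgb1, Icam2, Icam1 and Itgal from T2 and from FO to MZ passed in all 26 alternatives. Dropping the fold limit gave more members, as it did over all tested genes, whose share is given in brackets. From T2 to MZ it gave 6 instead of 3 in WT (28.8%), in KO (24.9%) and for the mean of genotypes (41.9%). From FO to MZ it gave 7 in WT (21%), 5 in KO (22.3%) and 7 for the mean (37.0%). For the mean it also gave 7 from T1 to MZ (53.1%) and 5 from T1 to FO (41.1%). It gave 4 from T1 to T2 (25.6%) and 2 from T2 to FO (9.59%). Fitting only the libraries compared, with fewer samples, called 0 members from T1 to T2 in WT and KO and 0 of all genes. For the mean of genotypes it also lost Itgal (adjusted p = 0.156), Itga4 (0.0924) and Itgax (0.101) from T1 to T2, Itgax (0.0624) and Cd44 (0.0712) from T2 to FO, Itgb1 (0.0985) and Itgb7 (0.0659) from T1 to MZ and Icam1 (0.0588) from T1 to FO, and gained Itgb2 from FO to MZ (0.0259) and T1 to FO (0.0285). For the mean of genotypes from T1 to T2, 2 members were called with a pseudocount of 0.1, with limma-voom, and without the replicate 2 libraries of T1. The main fit called 1 there, beside 5.43% of all tested genes. In WT from T1 to T2, 1 was called with a pseudocount of 1, where 421 of all genes were, against 2 members and 530 genes in the main fit. From T2 to FO limma-voom called 1 for the mean of genotypes, where the main fit called 0 members and 1.14% of all tested genes. Smaller differences of the mean of genotypes were lost with median-ratio scaling (Itgal, adjusted p = 0.133, and Itga4, adjusted p = 0.0962, from T1 to T2, Itgb1 from T1 to MZ, adjusted p = 0.0689, and Icam1 from T1 to FO, adjusted p = 0.104) or with no filter on low values (Itgal, adjusted p = 0.0613, Itga4, adjusted p = 0.0638, Itgb1, adjusted p = 0.0568, and from T2 to FO Itgax, adjusted p = 0.0745, and Cd44, adjusted p = 0.0735). As each library was left out, the count was 0 to 2 (WT) and 0 to 1 (KO) from T1 to T2, 1 to 3 from T2 to MZ in WT, and for the mean of genotypes 1 to 2 from T1 to T2 and from T1 to FO.

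The correlation of replicate deviations was -0.36 to 0.45 over 28 pairs of groups (median 0.08, 12 pairs over 0.1). It did not settle whether the replicate numbers pair the samples. Itgb7 was higher in replicate 2 than in replicate 1 in each T1, T2 and MZ group, and lower in each FO group. With the replicate block, 4 further member differences passed, and no pass was lost: Itgb2 from FO to MZ (adjusted p = 0.0261) and T1 to FO (adjusted p = 0.0479), Itgb7 from T2 to FO (adjusted p = 0.0413) and Itgax from FO to MZ in KO (adjusted p = 0.0414). For the ratios the block allows no permutation p under 0.125, at which all 6 lay, with log2 differences to MZ as without it: -3.75 from T2 and -4.64 from FO for Itgb7 over Itgb1, 0.33 and 0.38 for Itgal over Itgb2, and -1.35 and -1.34 for Itga4 over Itgb1. Leaving out 1 library, which also bars a p under 0.05, gave -3.92 to -3.60 and -4.78 to -4.51, 0.27 to 0.37 and 0.33 to 0.40, and -1.42 to -1.30 and -1.40 to -1.29. Itgax, at under 2 RPKM, is limited by depth.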
